A study of Mus musculus with 6 samples.

Results

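T cell receptor genes are assembled from V, D and J segments, and 152 such segments were listed among the 27763 gene rows of an RNA-seq table of natural killer (NK) cells, made from poly(A) RNA. They were taken by name: rows whose symbol begins with Trav, Traj, Trbv, Trbd, Trbj, Trdv, Trdd, Trdj, Tcrg-V or Tcrg-J. The set holds 109 V, 3 D and 40 J segments. By locus, 77 V and 24 J segments belong to the alpha chain (TRA), 22 V, 2 D and 14 J to the beta chain (TRB), 6 V, 1 D and 2 J to the delta chain (TRD), and 4 V to the gamma chain (TRG). All 152 had the same span in the GENCODE M21 annotation of GRCm38, which marks 10 of them as pseudogenes. No row is spelled Tcrg-J. The gamma rows Trgv2, Trgj1, Trgj2 and Trgj4 fall outside the rule by their spelling and are given only for comparison.

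The cells came from the spleen of 6-week-old C57BL/6 mice of wild-type genotype, with no treatment named. The groups were DN NK cells, with 3 libraries, and cNK cells, with 3 libraries. The labels spell out neither short name and give no sorting markers, so it is not known here which surface markers separated the groups. Whether each library is a separate mouse is not stated, and p-values therefore cover the spread between libraries, which may be technical.

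In a developing T cell, recombination joins 1 V to 1 J segment, with a D between them in the beta and delta chains, and the mature mRNA then carries 1 V, 1 J and 1 constant (C) region. Before recombination the locus is in germline form, and transcription that starts near D or J segments gives RNA with J and C but no V. Germline beta transcripts are known from NK cells, which need no rearranged receptor. Level per length, in FPKM (fragments scaled to row length and library depth), allows the V, J and C rows of a locus to be set side by side. The files hold levels and no reads, so a single read on a J segment cannot be called germline or rearranged. A read across a V-to-J join has no unbroken match in the germline genome, and how such reads were placed is not given in the sources used here.

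The D and J segments on which the beta and delta results turn are short, and they are shown whole, 5′ to 3′, from the GENCODE M21 transcripts on GRCm38. All lie on the plus strand. Capitals mark TTTGGNNNNGG or TTCGGNNNNGG on the printed strand, the letters of the phenylalanine and glycine motif that a J segment contributes to the receptor. It was found in 28 of the 40 J segments, in 28 of 34 annotated as functional and in 0 of 6 pseudogenes. Trbj1-6 and Trbj1-7 hold no match. The beta segments run from Trbd1 (chr6:41533201-41533212) over Trbj1-1 (chr6:41533864-41533911) to Trbj1-7 (chr6:41535642-41535687), followed by Trbd2 (chr6:41542163-41542176) and Trbj2-1 (chr6:41542754-41542803). The delta segments are Trdd2 (chr14:54122226-54122241), Trdj1 (chr14:54123138-54123188) and Trdj2 (chr14:54136779-54136837).
Trbd1: gggacagggggc
Trbj1-1: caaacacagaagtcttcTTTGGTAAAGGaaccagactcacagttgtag
Trbj1-2: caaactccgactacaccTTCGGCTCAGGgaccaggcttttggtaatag
Trbj1-6: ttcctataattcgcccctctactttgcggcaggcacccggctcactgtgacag
Trbj1-7: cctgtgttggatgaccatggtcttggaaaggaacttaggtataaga
Trbd2: gggactgggggggc
Trbj2-1: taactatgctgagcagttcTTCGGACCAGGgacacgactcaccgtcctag
Trdd2: atcggagggatacgag
Trdj1: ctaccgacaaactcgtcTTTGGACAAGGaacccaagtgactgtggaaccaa
Trdj2: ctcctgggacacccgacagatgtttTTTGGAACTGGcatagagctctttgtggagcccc

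V segments are longer, and the last 60 bases of the transcript are shown for the 2 V segments with the highest mean over the 6 libraries in each of the delta, beta and gamma chains, because this end is joined to D or J. Capitals mark the codon of the conserved cysteine, found as TANNNNTGT or TANNNNTGC on the printed strand. Trdv4 (chr14:54074905-54075515) and Trdv2-2 (chr14:53960944-53961602) are delta segments, Trbv13-2 (chr6:41121396-41121832) and Trbv17 (chr6:41163062-41163556) beta segments, and Tcrg-V5 (chr13:19192278-19192725) and Tcrg-V4 (chr13:19184974-19185506) gamma segments, all on the plus strand.
Trdv4: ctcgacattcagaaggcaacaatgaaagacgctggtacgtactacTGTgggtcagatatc
Trdv2-2: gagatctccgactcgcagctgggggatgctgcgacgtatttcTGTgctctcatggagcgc
Trbv13-2: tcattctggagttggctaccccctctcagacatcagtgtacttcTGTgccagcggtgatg
Trbv17: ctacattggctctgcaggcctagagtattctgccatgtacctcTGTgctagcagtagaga
Tcrg-V5: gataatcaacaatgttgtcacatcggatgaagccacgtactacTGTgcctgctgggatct
Tcrg-V4: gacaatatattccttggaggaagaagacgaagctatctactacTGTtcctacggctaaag

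The libraries summed to between 79798234 and 81437724 estimated counts in DN NK and between 84270567 and 89526647 in cNK, where 1 read pair is worth about 3.75 estimated counts. Of all rows, 81.0 to 83.1% were above 0 FPKM in DN NK libraries and 77.0 to 77.6% in cNK libraries. The 5 NK marker genes (Ncr1, Klrb1c, Tbx21, Eomes and Klre1) summed to 485 to 567 FPKM in DN NK and to 1052 to 1218 FPKM in cNK, and all 5 were lower in DN NK. The 13 T cell marker genes summed to 267 to 278 FPKM in DN NK and to 137 to 145 FPKM in cNK. Most of either sum was Tcf7, which NK cells also express, at 196 ± 3.94 FPKM in DN NK and 126 ± 3.71 FPKM in cNK (SD, n = 3 each). Among the others Cd3e averaged 0.846 ± 0.122 FPKM in DN NK and 0.0218 ± 0.0214 FPKM in cNK, Cd4 averaged 3.51 ± 0.290 FPKM in DN NK and 0.0160 ± 0.0202 FPKM in cNK, and Cd8a averaged 0.116 ± 0.0441 FPKM in DN NK and 0.0105 ± 0.0104 FPKM in cNK (SD, n = 3 each). Cd8b1 was at 0 in 2 DN NK libraries and in 1 cNK library. Without a filter, 10 of the 13 T cell markers were higher in DN NK and 1, Lef1, was lower, where 15.3% of all rows were higher and 16.0% lower in that fit. The 6 B cell markers summed to 25.6 to 38.7 FPKM in DN NK and to 0.883 to 1.22 FPKM in cNK. In bulk RNA, a larger share of cells of 1 type and more RNA per cell cannot be told apart.

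The number of V segments detected separated the groups, whereas the number of J segments did not. Above 0 FPKM were 69, 73 and 72 of the 109 V segments in DN NK libraries 1, 2 and 3, against 23, 20 and 19 in cNK libraries 1, 2 and 3. Every DN NK library thus listed more V segments than any cNK library. Of the 40 J segments, 22, 23 and 29 were above 0 FPKM in the DN NK libraries, against 27, 22 and 21 in the cNK libraries, and these ranges overlap. All 3 D segments were above 0 FPKM in all 6 libraries. Since T cell, B cell and NK markers differ between the same libraries, their part in these counts was not tested.

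The difference in V segments came mainly from the alpha and beta chains. Alpha V segments above 0 FPKM numbered 42, 45 and 46 of 77 in DN NK libraries and 13, 11 and 5 in cNK libraries. These alpha numbers include near-identical copies, which may share reads. Beta V segments numbered 20, 20 and 17 of 22 in DN NK libraries and 4, 4 and 8 in cNK libraries. Gamma V segments numbered 2, 3 and 4 of 4 in DN NK libraries and 1 in each cNK library, while delta V segments numbered 5 of 6 in each DN NK library and 5, 4 and 5 in cNK libraries. Beta J segments were all listed, 14 of 14 in every library of both groups. Alpha J segments numbered 6, 7 and 13 of 24 in DN NK libraries and 11, 6 and 5 in cNK libraries, with overlap.

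**Figure D1:**
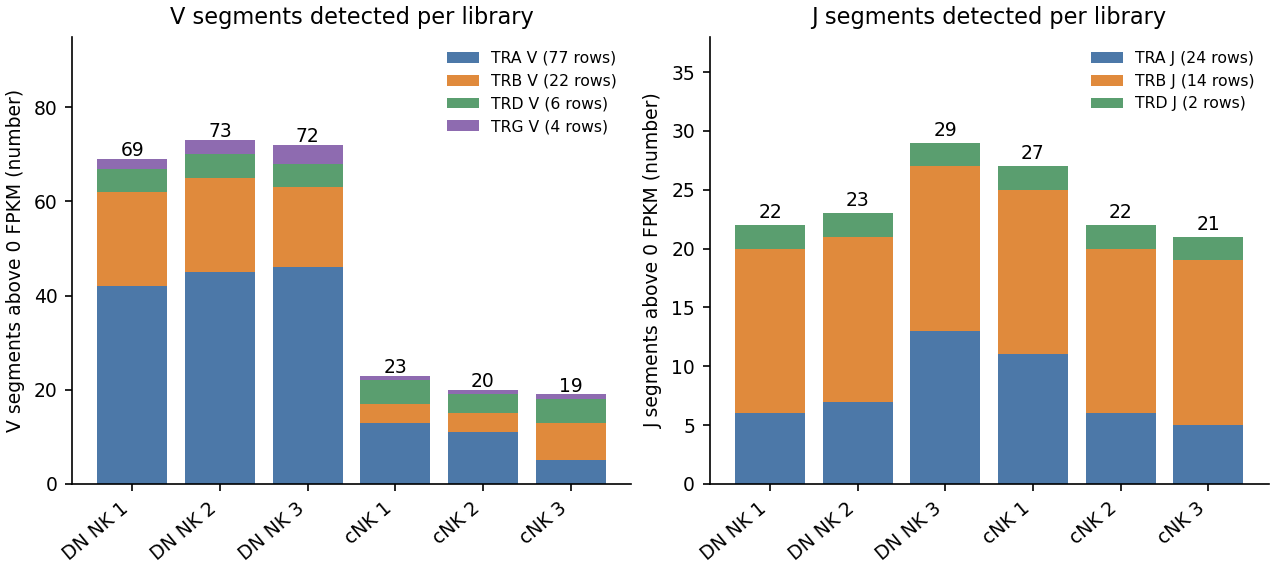
Number of V segments (left) and J segments (right) above 0 FPKM in each library, stacked by locus, with the total printed over each bar. V segments number 69 to 73 in DN NK and 19 to 23 in cNK libraries, and J segments 22 to 29 in DN NK and 21 to 27 in cNK libraries.

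Most V segment detections were weak. At 3 or more read pairs per library, 32, 28 and 25 V segments remained in DN NK libraries against 4, 6 and 5 in cNK libraries, and 15, 16 and 16 J segments against 15 in each cNK library. This floor is set on estimated counts, which scale with row length, so it is stricter for short J rows than for V rows. Trbj2-5 fell under it in every cNK library, though covered there by 11.5 to 16.6 reads. At 1 FPKM or more, 13, 13 and 15 V segments were counted in DN NK libraries against 3 in each cNK library, and 16 J segments in every library of either group. Those 16 are the 14 beta and both delta J segments. Listed in all 3 DN NK libraries and at 0 in all 3 cNK libraries were 20 V segments, of which 11 were alpha, 8 beta and 1 gamma. Among all listed rows 385 showed this pattern, or 1.39%. No V segment showed the opposite pattern. Near-identical alpha copies are counted separately, so the same reads may count for more than 1 segment. Listed in at least 1 DN NK library and in no cNK library were 76 V segments, against 2 V segments in cNK libraries only. Segments seen in a single library numbered 48 of the 152. No listed row, of these or any other genes, was at 0 in all 6 libraries. A segment was thus listed only if some library held it. Of the 109 V segments, 76 were listed through DN NK alone, so the numbers detected are not shares of all segments of the loci.

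Summed levels set the chains apart. Beta J segments summed to 874, 879 and 946 FPKM in DN NK libraries and to 793, 853 and 904 FPKM in cNK libraries, and the groups overlap. Beta V segments summed to 20.6, 17.7 and 17.2 FPKM in DN NK libraries and to 0.737, 1.05 and 1.65 FPKM in cNK libraries, without overlap. The beta constant genes Trbc1 and Trbc2 together averaged 598 ± 18.1 FPKM in DN NK and 490 ± 10.6 FPKM in cNK (SD, n = 3 each). The J sum was thus of the order of the C sum in both groups, at 1.5 ± 0.0420 of it in DN NK and 1.74 ± 0.122 in cNK. The V sum was far below it, at 0.0310 ± 0.00401 of the C sum in DN NK and 0.00234 ± 0.000970 in cNK.

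With 1 V per rearranged mRNA, the listed V level matched 2.06 ± 0.269% of the beta J level in DN NK and 0.133 ± 0.0455% in cNK (SD, n = 3 each). The J level is a sum over rows and lay above the C sum, at 1.5 of it in DN NK and 1.74 in cNK. It is therefore not a count of RNA molecules. Of V plus J, beta J segments held 98.0 ± 0.258% in DN NK and 99.9 ± 0.0453% in cNK. In every library of either group, most of the beta J level thus had no listed V level beside it. Germline transcripts carry J and C without V, but levels alone do not show which transcripts the J level came from. Neither that source nor the loss of reads at V-to-J joins was tested.

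For the alpha chain the balance was the other way round in DN NK. Alpha V segments summed to 7.42, 6.85 and 7.23 FPKM in DN NK libraries and to 1.41, 1.60 and 0.747 FPKM in cNK libraries, without overlap. The 24 listed alpha J segments summed to 1.08, 0.999 and 3.52 FPKM in DN NK libraries and to 2.45, 1.05 and 1.14 FPKM in cNK libraries, which overlap. The DN NK mean is 1.87 FPKM, and 1.04 FPKM without replicate 3. The alpha constant gene Trac averaged 7.58 ± 0.662 FPKM in DN NK and 5.24 ± 0.911 FPKM in cNK. The V sum was 0.952 ± 0.121 of the Trac level in DN NK and 0.253 ± 0.125 in cNK. The J share of V plus J was 19.4 ± 11.6% in DN NK and 54.6 ± 13.0% in cNK, over the alpha J rows listed here. The DN NK share was 12.7% without replicate 3, which alone had 32.8%. Over estimated counts in place of FPKM the share was 4.88% in DN NK and 21.4% in cNK.

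**Figure D2:**
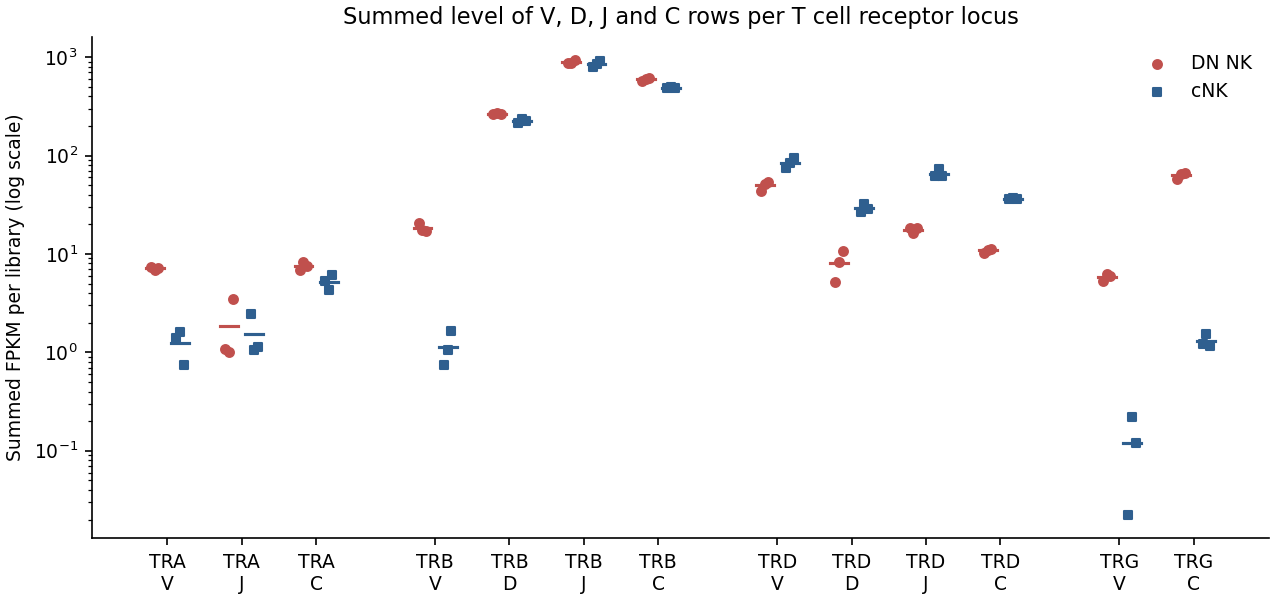
Summed FPKM of the V, D, J and C rows of each T cell receptor locus on a log axis, with 1 point per library and a bar at the group mean, DN NK left of cNK. Beta J averages 900 FPKM in DN NK and 850 FPKM in cNK, whereas beta V averages 18.5 FPKM in DN NK and 1.14 FPKM in cNK, and the delta rows are lower in DN NK.

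For single segments, edgeR's quasi-likelihood test was fitted on the whole table, with 1 filter and an adjusted p of 0.05 over all tested rows as the threshold. The filter asked for 1 FPKM or more in 3 or more of the 6 libraries. It left 29 of the 152 segments and set 123 aside. Of the 29, 10 were higher in DN NK, 5 were lower and 14 did not pass, where 61.7% of all 11690 tested rows passed, 30.8% higher and 30.9% lower. The share called, 15 of 29, is no larger than that background. In 21 of the 29 the DN NK and cNK values in FPKM did not overlap, where 70.3% of all tested rows did not. Their median log2 fold change was 0.30, and -0.02 over all tested rows. The 5 beta V and 2 gamma V segments among the 29 reached 1 FPKM in DN NK alone, so a difference was built into their passing the filter and their calls are no count in support of one.

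Without a filter all 152 segments were tested. Of them 25 were higher in DN NK, 5 lower and 122 not called, where 31.3% of all 27763 rows passed, 15.3% higher and 16.0% lower. The 25 were 14 of 22 beta V, 5 of 77 alpha V, 3 of 4 gamma V, 1 of 6 delta V and 2 of 14 beta J segments. In 46 of the 152 the DN NK and cNK values did not overlap, where 42.4% of all rows did not. The number called higher was smaller with any 1 library left out, at 15 to 18. It was 15 without DN NK replicate 2, 16 without DN NK replicate 3 and 16 without cNK replicate 1. With the replicate number as a block it was 13. The 5 lower calls were the same number in each of these fits.

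Trbd1 and Trbj1-1, the start of the first beta D and J cluster, had the highest levels of all 152 segments, and neither passed the test. Trbd1, the first beta D segment, had 261, 270 and 263 FPKM in DN NK libraries, against 214, 236 and 223 FPKM in cNK libraries. Its groups did not overlap, but the log2 fold change of 0.30 (SE 0.13) did not pass (edgeR, adjusted p = 0.0792). Trbj1-1, the J segment next to it, had 277, 296 and 330 FPKM in DN NK libraries, against 282, 316 and 322 FPKM in cNK libraries. The groups overlap, with a log2 fold change of 0.04 (SE 0.09, edgeR adjusted p = 0.744). These levels equal 2096 to 2444 reads covering the segment in DN NK libraries and 2323 to 2512 in cNK libraries, so depth is not limiting here.

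Along the first cluster the level fell from Trbj1-1 onward, while Trbj1-1 itself lay above Trbd1 in every library. Trbj1-2 averaged 113 ± 6.74 FPKM in DN NK and 122 ± 18.7 FPKM in cNK, Trbj1-3 averaged 106 ± 2.65 FPKM in DN NK and 94.0 ± 8.53 FPKM in cNK, and Trbj1-4 averaged 74.1 ± 4.88 FPKM in DN NK and 76.3 ± 4.54 FPKM in cNK (SD, n = 3 each). Trbj1-5 averaged 98.5 ± 0.898 FPKM in DN NK and 90.6 ± 2.45 FPKM in cNK, and Trbj1-6 averaged 68.8 ± 0.427 FPKM in DN NK and 57.7 ± 5.34 FPKM in cNK. None of these 5 passed the test. The fall was not even, since Trbj1-5 lay above Trbj1-4 in every library.

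Trbj1-7, the last of the cluster, had 59.8, 57.4 and 57.0 FPKM in DN NK libraries, against 39.3, 39.3 and 43.1 FPKM in cNK libraries. All DN NK values lay above all cNK values, with a log2 fold change of 0.58 (SE 0.15, edgeR adjusted p = 0.00867). The ratio of Trbj1-1 to Trbj1-7 was 5.19 ± 0.579 in DN NK and 7.56 ± 0.435 in cNK, without overlap (SD, n = 3 each).

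The second cluster was lower. Trbd2 averaged 2.44 ± 0.493 FPKM in DN NK and 1.45 ± 0.317 FPKM in cNK, far under Trbd1, and did not pass (edgeR, adjusted p = 0.336). Trbj2-1 had 41.4, 43.6 and 47.3 FPKM in DN NK libraries, against 27.3, 30.8 and 30.6 FPKM in cNK libraries. These groups do not overlap, with a log2 fold change of 0.63 (SE 0.16, edgeR adjusted p = 0.00808). Trbj2-5 had 4.18, 3.26 and 4.37 FPKM in DN NK libraries, against 2.01, 1.44 and 2.00 FPKM in cNK libraries, again without overlap. Its log2 fold change of 1.07 (SE 0.36) passed at an edgeR adjusted p of 0.0318, a call that ended in 10 of 15 alternatives, among them the fits without DN NK replicate 1 or 3 and without each cNK library.

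The remaining J segments of the second cluster did not pass. Trbj2-7 averaged 10.4 ± 0.600 FPKM in DN NK and 12.7 ± 2.13 FPKM in cNK (SD, n = 3 each). Trbj2-6, a pseudogene, had 2.17, 3.39 and 8.83 FPKM in DN NK libraries, against 2.96, 3.06 and 3.06 FPKM in cNK libraries, so DN NK replicate 3 alone was high. Trbj2-2 and Trbj2-3 averaged 6.43 and 6.36 FPKM in DN NK and 6.32 and 6.30 FPKM in cNK, and Trbj2-4 averaged 4.38 ± 0.513 FPKM in DN NK and 3.06 ± 1.09 FPKM in cNK. The first cluster held 91.1 ± 0.432% of the beta J level in DN NK and 92.6 ± 0.226% in cNK. The second cluster summed to 80.5 ± 7.54 FPKM in DN NK and 62.8 ± 4.80 FPKM in cNK, without overlap.

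**Figure D3:**
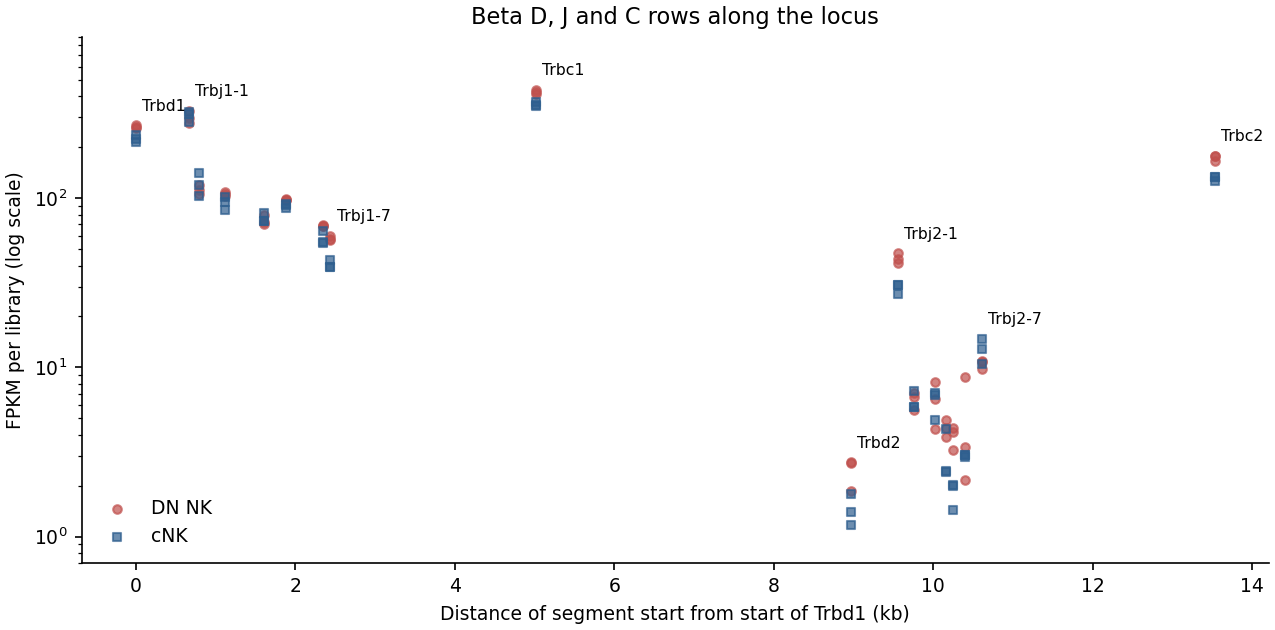
FPKM of the beta D, J and C rows in each library on a log axis, against the distance of their start from the start of Trbd1 in kilobases. In both groups Trbd1 and Trbj1-1 are the highest D and J segments, and the level falls unevenly from Trbj1-1 along the first cluster. Trbj1-7 and Trbj2-1 are higher in DN NK without overlap.

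Beta V segments encode the first part of the beta chain, and all 22 had a higher mean in DN NK than in cNK. For 13 of them this was fixed in advance, since they were listed through DN NK alone. The read pairs of all 22 summed to 532 over the 3 DN NK libraries and to 35.5 over the 3 cNK libraries. Trbv13-2 was the highest, with 2.33, 2.95 and 2.94 FPKM in DN NK libraries, against 0.258, 0.0848 and 0.265 FPKM in cNK libraries. The groups do not overlap. Its log2 fold change was 3.70 in the filtered fit and 3.64 in the fit over all rows (SE 0.47, edgeR adjusted p = 6.12e-05), and only the adjusted p over all rows is given for V segments that passed the filter through DN NK alone. Trbv17 had 2.48, 2.06 and 1.33 FPKM in DN NK libraries, against 0, 0 and 0.412 FPKM in cNK libraries. Its log2 fold change was 3.89 in the filtered fit and 3.82 over all rows (SE 1.25), where it did not pass (edgeR adjusted p = 0.0649). The filtered call also ended with DESeq2. The cNK level rests on replicate 3 alone, without which that group is at 0 and the fitted log2 fold change is 9.18.

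Further beta V segments were spread widely, with none dominant. Trbv29 had 1.59, 1.56 and 2.16 FPKM in DN NK libraries, against 0.208, 0 and 0.199 FPKM in cNK libraries, with a log2 fold change of 3.61 over all rows (SE 0.74, edgeR adjusted p = 0.00207). Trbv12-2 had 2.29, 1.67 and 1.16 FPKM in DN NK libraries, against 0, 0.284 and 0.214 FPKM in cNK libraries, with a log2 fold change of 3.36 over all rows (SE 0.79, edgeR adjusted p = 0.00714). Neither overlaps between the groups. In the filtered fit Trbv12-2 was at 3.42, and at 4.06 without cNK replicate 2. Trbv15 had 1.43, 1.48 and 1.36 FPKM in DN NK libraries, against 0, 0 and 0.105 FPKM in cNK libraries, where it rests on about 1 read pair in replicate 3. Its ratio of summed counts was 42.6, with an exact 95% interval of 7.21 to 1722 that covers counting error only, and it passed over all rows at an edgeR adjusted p of 0.000676.

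At 0 in all cNK libraries were 13 beta V segments, 11 of them with over 3 read pairs in DN NK. Taking 3 read pairs over the cNK group as the upper limit of a count of 0, Trbv12-1, Trbv13-3 and Trbv16 were at least 10.6-fold, at least 10.4-fold and at least 10.3-fold higher in DN NK, at 1.02 ± 0.580, 1.15 ± 0.673 and 0.958 ± 0.320 FPKM in DN NK (SD, n = 3). Trbv13-1 and Trbv3 were at least 7.85-fold and at least 7.57-fold higher. These 5 passed in the fit without a filter (edgeR, adjusted p of 0.000254 to 0.000964). The bounds of the 11 ran from 1.14-fold to 10.6-fold. Trbv1, by contrast, was listed in all 6 libraries, at 0.379, 1.35 and 1.30 FPKM in DN NK and 0.221, 0.576 and 0.241 FPKM in cNK. Its groups overlap, and it did not pass (edgeR without a filter, adjusted p = 0.0882).

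**Figure D4:**
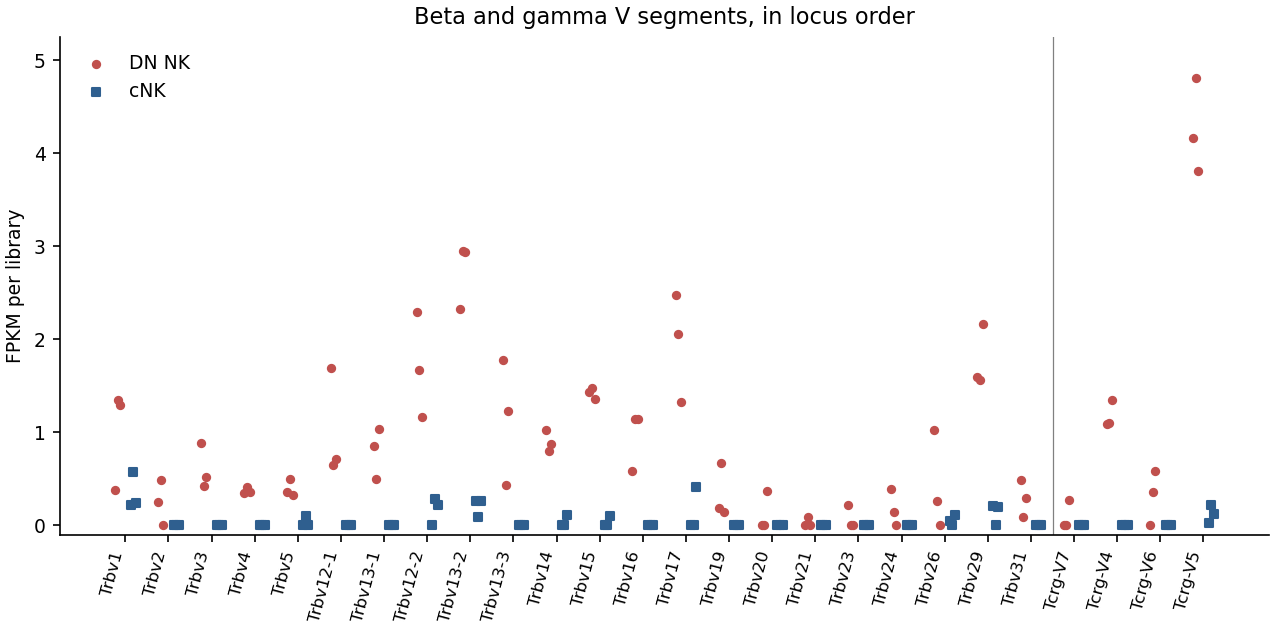
FPKM of the 22 beta V segments and, right of the line, the 4 gamma V segments in each library, in the order of the loci. DN NK points reach 2.95 FPKM for Trbv13-2 and 4.80 FPKM for Tcrg-V5, while all cNK points lie at or below 0.576 FPKM and many at 0.

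Of the 4 gamma V segments, Tcrg-V5 and Tcrg-V4 were called higher in DN NK under every alternative. Both passed the filter through DN NK alone, so a difference was built into the filtered fits. Their calls in those fits are no support for one. Tcrg-V5 had 4.16, 4.80 and 3.81 FPKM in DN NK libraries, against 0.0220, 0.222 and 0.119 FPKM in cNK libraries. Its groups lie far apart, with a log2 fold change of 4.92 over all rows (SE 0.49, edgeR adjusted p = 6.97e-06). In the filtered fit it was 4.99, and 5.59 without cNK replicate 2, the highest of the cNK libraries. Tcrg-V4 had 1.09, 1.10 and 1.35 FPKM in DN NK libraries and 0 FPKM in each cNK library, and was thus at least 13.5-fold higher (edgeR over all rows, adjusted p = 5.48e-05). Tcrg-V6 had 0, 0.356 and 0.579 FPKM in DN NK libraries and was at 0 in cNK, at least 3.69-fold higher, but its call without a filter (edgeR adjusted p = 0.0444) ended in 8 alternatives, among them the fits without DN NK replicate 2 or 3 and without each cNK library. Tcrg-V7 was seen in 1 DN NK library, at 0.274 FPKM.

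The gamma constant genes moved with the V segments. Tcrg-C1, Tcrg-C2 and Tcrg-C4 together averaged 63.1 ± 4.28 FPKM in DN NK and 1.30 ± 0.195 FPKM in cNK (SD, n = 3 each). The gamma V sum was 0.0925 ± 0.00330 of this in DN NK and 0.0886 ± 0.0648 in cNK, so the V-to-C ratio overlapped between the groups. The cNK ratio ran from 0.0182 to 0.146 and rests on Tcrg-V5 alone, at 3.74 read pairs over all cNK libraries. At that depth the overlap does not show that the ratios are alike. Trgj4, a gamma J row outside the rule, averaged 14.4 ± 4.68 FPKM in DN NK and 0.423 ± 0.267 FPKM in cNK. All 4 gamma V rows overlap the row Gm31887 on the other strand, which averaged 1.38 ± 0.161 FPKM in DN NK and was at 0 in all cNK libraries. The library kit does not mark strand, so reads of these rows cannot be told apart. Markers of gamma delta T cells (Sox13, Blk and Cd163l1) summed to 3.44 to 4.98 FPKM in DN NK and to 0.0549 to 0.226 FPKM in cNK, with Sox13 at or near 0 in both groups, and their part in the gamma values was not tested.

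Alpha V segments were numerous but thin. A higher mean in DN NK was found for 70 of 77. For 60 of the 77 this was fixed in advance, since they were listed through DN NK alone. The median segment had only 2.13 read pairs over the 3 DN NK libraries together. No alpha V segment reached 1 FPKM, the highest values being 0.931 FPKM in DN NK and 0.555 FPKM in cNK. Trav12-2 had 0.318, 0.460 and 0.931 FPKM in DN NK libraries and was at 0 in all cNK libraries. It was at least 6.53-fold higher (edgeR without a filter, adjusted p = 0.00205), and it was the highest alpha V segment in DN NK.

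The other 4 alpha V segments called without a filter were Trav15n-1, Trav15d-1-dv6d-1, Trav15n-2 and Trav15d-2-dv6d-2, at least 2.74-fold higher for the first pair and at least 2.46-fold for the second. They are copies within a duplicated stretch of the locus, and both members of each pair have the same summed estimated counts. Of the 77 alpha V segments, 49 are at least 95% identical to another listed V segment over the transcript, and 25 are fully identical to one. Values of single alpha V segments are thus uncertain, and numbers of alpha V segments may count the same reads in more than 1 copy. No beta, delta or gamma V segment has such a copy. Trav14-1 and the pseudogene Trav22 were listed in all 6 libraries, Trav14-1 at 0.418 ± 0.280 FPKM in DN NK and 0.305 ± 0.217 FPKM in cNK, and Trav22 at 0.297 ± 0.0512 FPKM in DN NK and 0.378 ± 0.109 FPKM in cNK (SD, n = 3 each). Both overlap between groups and neither passed. Trav22 also overlaps the row Gm43647 on the other strand, so its level may hold reads of that row.

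Segments of known invariant receptors were near the limit. Trav11 and Trav11d, which encode the alpha V region of invariant NKT cells and are near-identical, had about 1.07 read pairs each in DN NK, both in replicate 3, and none in cNK. Trav1, which encodes the alpha V region of mucosal-associated invariant T cells, had 2.13 read pairs in DN NK replicate 3 and none elsewhere. A count of 0 allows up to 3 read pairs over a group, so these values are not distinguishable from 0 or from each other. The J segments that complete these receptors are not among the alpha J rows listed, and no row at 0 in all libraries is listed. Zbtb16, a transcription factor of invariant NKT cells that NK and innate lymphoid cells also express, averaged 5.81 ± 0.0637 FPKM in DN NK and 3.21 ± 0.276 FPKM in cNK.

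Alpha J segments stayed under 1 FPKM, with a highest value of 0.771 FPKM in any library, and 0 of 24 were called without a filter. The 4 at the V-proximal end, Traj61, Traj60, Traj59 and Traj58, were listed in 5 or 6 of the 6 libraries, whereas the other 20 were listed in 1 to 3 libraries each. Traj58 averaged 0.333 ± 0.288 FPKM in DN NK and 0.228 ± 0.145 FPKM in cNK, and Traj60, a pseudogene, averaged 0.238 ± 0.233 FPKM in DN NK and 0.224 ± 0.227 FPKM in cNK (SD, n = 3 each). Together these 4 held 80.1, 34.8 and 47.4% of the alpha J sum in DN NK libraries and 29.97, 71.5 and 60.6% in cNK libraries, which overlap. No alpha J segment was covered by more than 6.35 reads in any library, and a p that misses the threshold at such depth does not show that the groups are alike.

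Of the 9 delta segments 6 were tested with the filter, where 30.9% of all tested rows were lower in DN NK. Lower were 5 of them, Trdv2-2, Trdv4, Trdv5, Trdd2 and Trdj1. Without a filter 1 of the 9, Trdv2-1, was higher, where 15.3% of all rows were higher. Trdj1, the J segment next to Trdd2, had 15.8, 14.0 and 15.2 FPKM in DN NK libraries, against 57.6, 67.5 and 58.7 FPKM in cNK libraries. The groups lie far apart, and the level fell by 1.96 on the log2 scale (SE 0.17, edgeR adjusted p = 2.3e-05). Trdd2 had 5.20, 8.24 and 10.8 FPKM in DN NK libraries, against 26.5, 32.2 and 28.7 FPKM in cNK libraries, and it fell by 1.77 on the log2 scale (SE 0.33, edgeR adjusted p = 0.00177). Trdc, the delta constant gene, averaged 10.9 ± 0.554 FPKM in DN NK and 36.5 ± 0.533 FPKM in cNK. Trdj2 was lower in every DN NK library, at 2.68 ± 0.456 FPKM in DN NK and 4.42 ± 0.726 FPKM in cNK, but it did not pass (log2 fold change -0.62, edgeR adjusted p = 0.126).

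Trdv4, the delta V segment nearest upstream of the D and J segments among the rows, was the most abundant V segment of any chain. It had 30.7, 33.6 and 35.4 FPKM in DN NK libraries, against 42.1, 46.5 and 52.2 FPKM in cNK libraries. The groups do not overlap, and the level fell by 0.44 on the log2 scale (SE 0.09, edgeR adjusted p = 0.00353). Trdv2-2 had 10.9, 15.05 and 16.2 FPKM in DN NK libraries, against 29.2, 33.6 and 36.1 FPKM in cNK libraries. It fell by 1.17 on the log2 scale (SE 0.15, edgeR adjusted p = 0.000219). Together Trdv4 and Trdv2-2 held 95.3 ± 0.598% of the delta V level in DN NK and 94.3 ± 0.556% in cNK (SD, n = 3 each).

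Relative to Trdc, delta V was higher in DN NK, although its level was lower. The delta V sum was 4.56 ± 0.295 of the Trdc level in DN NK and 2.32 ± 0.272 in cNK, without overlap, and Trdv4 alone was 3.06 ± 0.0637 of it in DN NK and 1.29 ± 0.146 in cNK. Delta J stood at 1.63 ± 0.147 of the Trdc level in DN NK and 1.80 ± 0.142 in cNK, and these ranges overlap. Of V plus J, delta J held 26.4 ± 2.93% in DN NK and 43.7 ± 3.37% in cNK. Trdv4 and Trdv2-2 overlap rows on the other strand, so the delta V sum may hold reads of those rows.

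**Figure D5:**
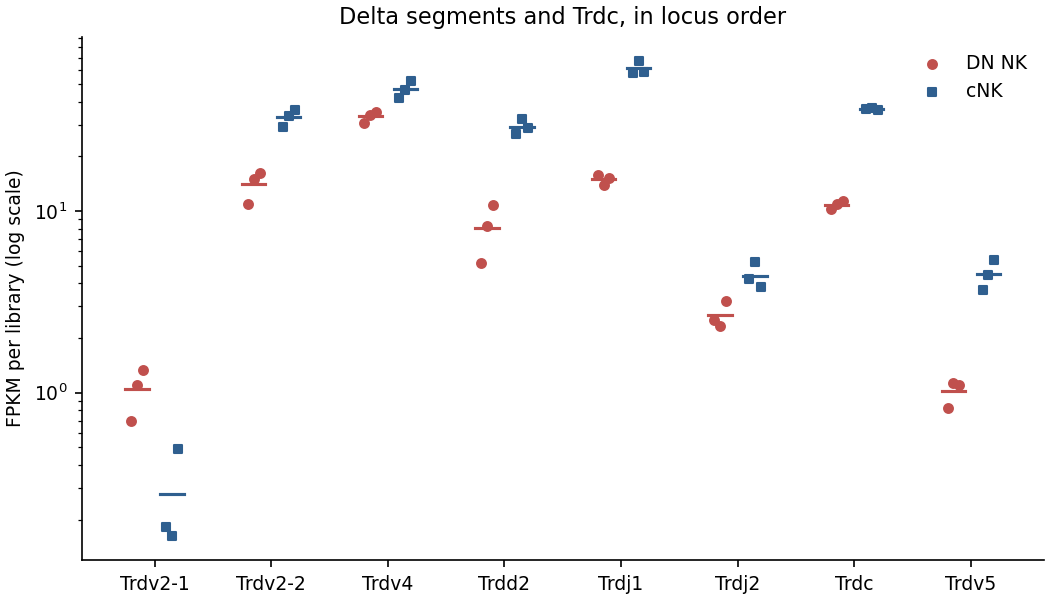
FPKM of delta segments and of Trdc in each library on a log axis, in the order of the locus, with a bar at the group mean (Trdv1 and Trdv3, with libraries at 0 that a log axis cannot show, are left out). Trdv2-2, Trdv4, Trdd2, Trdj1, Trdc and Trdv5 are lower in every DN NK library than in any cNK library, and Trdv2-1 is higher in every DN NK library.

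The smaller delta V segments did not move together. Trdv5, which lies in reverse orientation and overlaps Trdc, had 0.826, 1.14 and 1.10 FPKM in DN NK libraries, against 3.68, 4.46 and 5.40 FPKM in cNK libraries. It fell by 2.06 on the log2 scale (SE 0.24, edgeR adjusted p = 0.000104), and Trdc, with which its span overlaps, fell by 1.69 on the log2 scale (edgeR adjusted p = 1.2e-07). Trdv2-1 had 0.696, 1.10 and 1.34 FPKM in DN NK libraries, against 0.183, 0.162 and 0.488 FPKM in cNK libraries, higher without overlap (log2 fold change 1.86, SE 0.63, edgeR without a filter, adjusted p = 0.0393). Trdv1 had 0.218, 0.412 and 0.209 FPKM in DN NK libraries, against 0.0834, 0 and 0 FPKM in cNK libraries, also without overlap, but did not pass (edgeR without a filter, adjusted p = 0.217). Trdv3, a pseudogene, was at 0 in DN NK and listed at 0.0370 FPKM in 1 cNK library.

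Most delta rows overlap a row on the other strand. Trdv4, Trdd2 and Trdj1 overlap Gm30275, Trdj2 overlaps Gm43434, and Trdv2-1 and Trdv2-2 overlap Gm43647. Gm30275 averaged 0.128 ± 0.0769 FPKM in DN NK and 0.690 ± 0.292 FPKM in cNK, Gm43434 averaged 1.20 ± 0.143 FPKM in DN NK and 4.25 ± 1.49 FPKM in cNK, and Gm43647 averaged 1.85 ± 0.485 FPKM in DN NK and 4.16 ± 1.01 FPKM in cNK (SD, n = 3 each). Without the overlapping rows only Trdv1, which did not pass, and the pseudogene Trdv3 remain. They sum to 0.280 FPKM in DN NK and 0.0401 FPKM in cNK, a small part of the full delta V means. Those were 49.6 FPKM in DN NK and 84.7 FPKM in cNK, so the remainder does not give the direction of delta V. The part of the other-strand rows in the delta values was not tested.

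Other genes of the receptor pathway did not follow 1 direction. Of the 7 CD3 and signalling genes Cd3e, Cd3d, Cd3g, Cd247, Lck, Zap70 and Lat, 6 were tested, 3 were higher in DN NK and 2 lower, where 30.8% of all tested rows were higher and 30.9% lower. Cd3d and Cd3g, chains of the CD3 complex, averaged 38.5 ± 0.873 and 17.3 ± 0.750 FPKM in DN NK and 4.54 ± 0.358 and 3.39 ± 0.133 FPKM in cNK (SD, n = 3 each). Lat, an adaptor, was the other higher gene. Cd247, which encodes the zeta chain that NK receptors also use, averaged 15.4 ± 0.653 FPKM in DN NK and 35.4 ± 1.19 FPKM in cNK, and Lck, a kinase of the receptor, averaged 147 ± 6.76 FPKM in DN NK and 210 ± 3.19 FPKM in cNK. Zap70 did not pass.

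Of the recombination genes, Rag1, a subunit of the recombinase, and Ptcra, the pre-T cell receptor alpha chain, were listed and both lay under the filter. Rag1 had 0.0422, 0.0122 and 0.00619 FPKM in DN NK libraries and was at 0 in all cNK libraries, and it passed without a filter (edgeR, adjusted p = 0.0216). Ptcra averaged 0.0208 ± 0.0180 FPKM in DN NK, was at 0 in cNK and did not pass. These levels are close to the lowest the table lists. Of the 7 listed constant genes all were tested, with 6 higher in DN NK (Trac, Trbc1, Trbc2, Tcrg-C1, Tcrg-C2 and Tcrg-C4) and 1, Trdc, lower. Of all tested rows 30.8% were higher and 30.9% lower. Tcrg-C1 and Tcrg-C2 reached 1 FPKM in DN NK alone, so a difference was built into their passing the filter.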

How the data were processed

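Spleen NK cell RNA was poly(A) selected and sequenced in paired reads of 150 bp, per the labels' protocols. The kit named there does not mark strand. HISAT, StringTie and edgeR are the tools, and GRCm38 (mm10) the build, in the submitters' processing notes; versions and settings are not given in the sources used here. The table the authors deposited gives an FPKM value and a whole-number estimated count per row and library, per the file headers. The deposited counts behave as estimated counts, not read counts: 371 of 374 segment values in rows of 1 transcript (99.2%) lay within 1 of FPKM times length times a constant per library. A read pair is worth about 3.75 of them, and the floor of 3 read pairs is 11.2. These worths are approximate. For segments shorter than a fragment the number of reads covering the segment is given instead, except where segments at 3 read pairs are counted. Floors and intervals cover counting error only.

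The test was edgeR 4.0.16 in R 4.3.3, robust quasi-likelihood with TMM factors, group as the only term, 2-sided, Benjamini-Hochberg over all 11690 tested rows, which held 99.3% of the estimated counts. Segments under the filter took values from the fit over all 27763 rows. Sums, shares and counts of segments have no test. Alternatives were other filters, DESeq2 1.42.0, DESeq2 size factors in edgeR, limma 3.58.1 on log2(FPKM + 1) and log2(FPKM + 0.1), counts divided by the worth of a read pair, a replicate block and each library left out. The same alternatives without a filter were chosen after seeing the data. The fits were tested on simulated data.

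The members and lists were chosen with earlier results of these data known. Named by rule were the 3 highest segments of each chain and class, every segment past the filter, the largest changes without a filter and the segments of invariant receptors. Other segments given with values (Trbv1, Trbv3, Traj61, the Trav15 copies, Trdv1, Trdv2-1, Trdv3 and Tcrg-V7) were chosen after their values were seen. Sequences are from GENCODE M21.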

Additional observations from a re-analysis of the deposited data

How the results depend on the processing

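Across 15 alternatives, 18 of the 21 called segments named by the rule kept their call under every one in which they could be fitted, and 19 of 21 with each library left out in turn. The exceptions were Trbj2-5, Trbv17 and Tcrg-V6, and no segment reversed. Of the 21, 7 beta and gamma V segments passed the filter through DN NK alone. Trav12-2, Trbv12-1, Trbv13-1, Trbv13-3, Trbv16 and Tcrg-V6, called without a filter, were listed through DN NK alone. Among them Trbv12-1, Trbv13-1, Trbv13-3 and Trbv16 were named for their large higher changes. A difference was thus built into the choice of all these V segments, and calls they kept are no support for one. Where 22 named segments were not called, single alternatives called Trbd1, Trbd2, Trbj1-5, Trbj1-6 and Trdj2, mainly limma. The lower calls were 5 or 6 in every alternative. The 10 higher calls became 19 with edgeR's default filter, 27 with a mean of at least 0.1 FPKM and 25 without a filter, since more segments were tested. Without a filter, leaving out 1 library gave 15 to 18 higher calls.

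Same-numbered libraries deviated together with correlations of 0.106, 0.0906 and 0.152, and each correlated best with its own number. These low values do not settle whether the numbers pair the libraries. With the replicate block 9 segments were higher, without Trbv17, against 10 without the block. In the fits without a filter 13 were higher with the block, against 25.

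Mean V segments per library were 28.3 in DN NK and 5.0 in cNK at 3 read pairs, 54.7 in DN NK and 12.7 in cNK at 0.1 FPKM, and 13.7 in DN NK and 3.0 in cNK at 1 FPKM. Mean J segments were 15.7 in DN NK and 15 in cNK at 3 read pairs, and 16 in each group at 1 FPKM. The floor of 3 read pairs is stricter for short J rows than for V rows.

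Without the highest segment of each set, alpha V summed to 6.75 FPKM in DN NK, beta V to 15.8 FPKM in DN NK, beta J to 598 FPKM in DN NK and 544 FPKM in cNK, delta V to 16.4 FPKM in DN NK and 37.8 FPKM in cNK, delta J to 2.68 FPKM in DN NK and 4.42 FPKM in cNK, and gamma V to 1.58 FPKM in DN NK and 0.0 FPKM in cNK. Without overlapping rows, alpha V summed to 6.87 FPKM in DN NK, and delta V to 0.280 FPKM in DN NK and 0.0401 FPKM in cNK. That delta sum holds only Trdv1 and Trdv3. Without the highest segment, the J share of V plus J was 97.0% in DN NK and 99.8% in cNK for beta, and 52.1% in DN NK and 63.5% in cNK for delta.

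Over estimated counts, which weigh long V segments more, the J share was 4.88% in DN NK and 21.4% in cNK for alpha, 86.3% in DN NK and 99.0% in cNK for beta, and 4.25% in DN NK and 8.67% in cNK for delta. It stayed lower in DN NK in each. Sums over estimated counts were set only as these shares. Depth limits the alpha segments in both groups, and the beta and gamma V segments in cNK, since few of them reach 3 read pairs in a library.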
